A study of Mus musculus with 16 samples.

Results

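A 6 Mb region of mouse chromosome 4, from 86 to 92 Mb in mm10, was described in break maps of AB22 mesothelioma cells. It was cut into 300 fixed windows of 20 kb, out of 136135 such windows on the main chromosomes. Break positions were summed over 16 libraries in each window, a position being a base at which at least 1 free DNA end was recorded in a library. A window was called low when it held fewer than 11 positions, which is 25% of the median of 44 over the chromosome 4 windows that held any. In the 6 Mb, 73 windows were low (24.3%), against 7.99% of all windows of the genome and 1.09% of autosomal windows with at least 1 position. The region was chosen by these summed position counts, so its low counts are given as a description and were not tested.

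AB22 is a mouse line from malignant mesothelioma, which arises in the mesothelial lining of chest or abdomen. BLISS ligates adapters to free DNA ends inside fixed cells, so each recorded end marks a double-strand break or another free end. The cells carried a doxycycline-induced hairpin, either against the chromatin protein HMGB1 (shHMGB1) or a control hairpin (shCTRL), and each line came from infected cells selected with puromycin. All 8 groups had doxycycline, G1 synchronisation and the same vector. shHMGB1 cells received 0, 3, 5 or 10 Gy from a caesium-137 source, and shCTRL cells received the same doses, with 2 libraries in each group. The series' design text calls them biological replicates and does not say whether they came from separate cultures, so the p-values below measure the spread between these libraries, which may be technical. Break ends carry no measure of expression, so neither the silencing of HMGB1 nor the cell type could be checked here. Libraries held 415514 to 633368 positions in shHMGB1 and 84643 to 525204 in shCTRL, and the 3 Gy shCTRL replicate 2 was the smallest.

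The region holds genes that guard cell growth. Cdkn2a encodes p16Ink4a, which blocks the cyclin D kinases that inactivate the retinoblastoma protein, and, from a separate first exon, p19Arf, which blocks Mdm2 and so stabilises p53. Cdkn2b encodes the related kinase inhibitor p15Ink4b. Mtap beside them recycles methylthioadenosine into methionine, and the neighbouring cluster encodes the type I interferons, secreted antiviral proteins. In human mesothelioma the corresponding locus is often lost, and the loss can take in MTAP and interferon genes. Counts of break ends alone cannot tell apart DNA that is absent from DNA that is present and gave no mapped ends.

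The 300 bases around 5 annotated start sites (250 bases before to 50 after) are shown because they are the starts of the growth and interferon genes on which the gene results below turn. They are from RefSeq, build GRCm38.p6, in the direction of transcription, with each CG dinucleotide in capitals. CG was searched as these letters, which read the same on both strands. Ifnb1 lies at chr4:88522745-88523044, minus strand. Mtap lies at chr4:89137120-89137419, plus strand. The p16Ink4a start of Cdkn2a lies at chr4:89282143-89282442 and its p19Arf start at chr4:89294570-89294869, both minus strand. Cdkn2b lies at chr4:89310983-89311282, minus strand.
Ifnb1: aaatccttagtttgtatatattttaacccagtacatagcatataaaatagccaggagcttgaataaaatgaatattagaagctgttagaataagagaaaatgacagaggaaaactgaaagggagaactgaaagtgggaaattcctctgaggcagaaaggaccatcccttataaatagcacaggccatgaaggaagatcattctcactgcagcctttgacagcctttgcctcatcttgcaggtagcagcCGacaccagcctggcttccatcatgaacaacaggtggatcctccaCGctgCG
Mtap: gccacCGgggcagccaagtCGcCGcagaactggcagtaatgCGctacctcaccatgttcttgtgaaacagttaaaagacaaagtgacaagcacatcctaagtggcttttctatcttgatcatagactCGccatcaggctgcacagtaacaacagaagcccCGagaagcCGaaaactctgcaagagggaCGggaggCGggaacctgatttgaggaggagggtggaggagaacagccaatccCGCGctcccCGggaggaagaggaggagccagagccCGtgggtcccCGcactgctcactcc
Cdkn2a, p16Ink4a start: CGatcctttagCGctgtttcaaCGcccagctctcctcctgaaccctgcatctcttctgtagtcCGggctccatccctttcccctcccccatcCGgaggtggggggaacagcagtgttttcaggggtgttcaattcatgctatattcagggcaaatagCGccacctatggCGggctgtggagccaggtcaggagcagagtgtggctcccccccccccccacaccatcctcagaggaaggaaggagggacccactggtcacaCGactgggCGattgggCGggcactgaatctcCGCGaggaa
Cdkn2a, p19Arf start: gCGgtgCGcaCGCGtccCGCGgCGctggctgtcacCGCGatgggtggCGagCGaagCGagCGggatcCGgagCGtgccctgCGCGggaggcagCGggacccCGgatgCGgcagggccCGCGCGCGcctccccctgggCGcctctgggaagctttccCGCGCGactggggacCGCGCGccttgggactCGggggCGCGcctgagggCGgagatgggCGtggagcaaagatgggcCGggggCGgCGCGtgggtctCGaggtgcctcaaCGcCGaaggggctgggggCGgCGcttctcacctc
Cdkn2b: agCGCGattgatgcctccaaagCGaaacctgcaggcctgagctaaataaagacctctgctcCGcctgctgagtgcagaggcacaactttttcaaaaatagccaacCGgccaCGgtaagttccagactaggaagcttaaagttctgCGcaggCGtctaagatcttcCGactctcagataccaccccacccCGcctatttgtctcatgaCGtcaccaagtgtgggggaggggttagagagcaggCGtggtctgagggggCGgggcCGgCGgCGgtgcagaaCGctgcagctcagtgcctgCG

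The Ifnb1 stretch held 3 CG, the Mtap stretch 14, the p16Ink4a start 12, the p19Arf start 45 and the Cdkn2b stretch 18. Of 31365 autosomal promoter stretches in the table, 94.7% held a CG, with a median of 7. None of the 5 stretches held a break position in any of the 16 libraries, and a count of 0 allows up to 3 positions. Stretches this short hold few positions even at the flank density, so the 0 of any single stretch is uninformative. Of the autosomal stretches, 53.7% held a position, and of the 11033 with at least 15 CG 66.8% did. Of the 43 promoter stretches between the edges, 2 held a position, 1 each, at Gm13271 and at Gm12610. The RefSeq start of Gm12610, a noncoding gene, lies beside the p19Arf start, while GENCODE M21 starts this gene at 89421848. In the flanks, 11 of 18 proximal and 4 of 9 distal stretches held a position. The mature forms of miR-31, the only annotated microRNA of the near-empty stretch, are shown with their seeds (bases 2 to 8) in capitals.
mmu-miR-31-5p: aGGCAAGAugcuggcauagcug
mmu-miR-31-3p: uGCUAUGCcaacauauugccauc

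Their gene, Mir31 (chr4:88910557-88910662, minus strand), held 0 positions. At 0.106 kb it would hold only 0.243 at the density of the surrounding DNA, so a 0 is uninformative there.

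The longest unbroken run of low windows spanned chr4:88660001-89540000, 880 kb in 44 windows. It stopped on each side at a single window above the threshold, with further low windows beyond. Window 88640001-88660000 held 23 positions, 19 in shHMGB1 and 4 in shCTRL libraries, and window 89540001-89560000 held 12, 6 in each line. Joined across such single windows, a choice made after seeing the data, the near-empty stretch spanned chr4:88460001-89960000, 1500 kb in 75 windows. It is the stretch described below unless the longest run is named.

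The near-empty stretch held a mean of 2.49 ± 3.11 positions per window (SD over 75 windows), with a median of 2 and 12 windows at 0. The flank toward the centromere, called proximal, held 47.8 ± 16.8 positions in each of its 123 windows, and the distal flank 43.2 ± 10.4 in each of its 102. The lowest flank windows held 15 positions (88360001-88380000 and 86460001-86480000) and 18 (91620001-91640000), and the highest windows of the stretch other than the 2 joined ones held 8 and 7. The stretch was low in both lines. In shHMGB1 libraries its windows held 0 to 19 positions with a median of 1, against medians of 27 and 28 in the proximal and distal flanks. In shCTRL libraries they held 0 to 6 with a median of 1, against medians of 17 and 15.

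**Figure D1:**
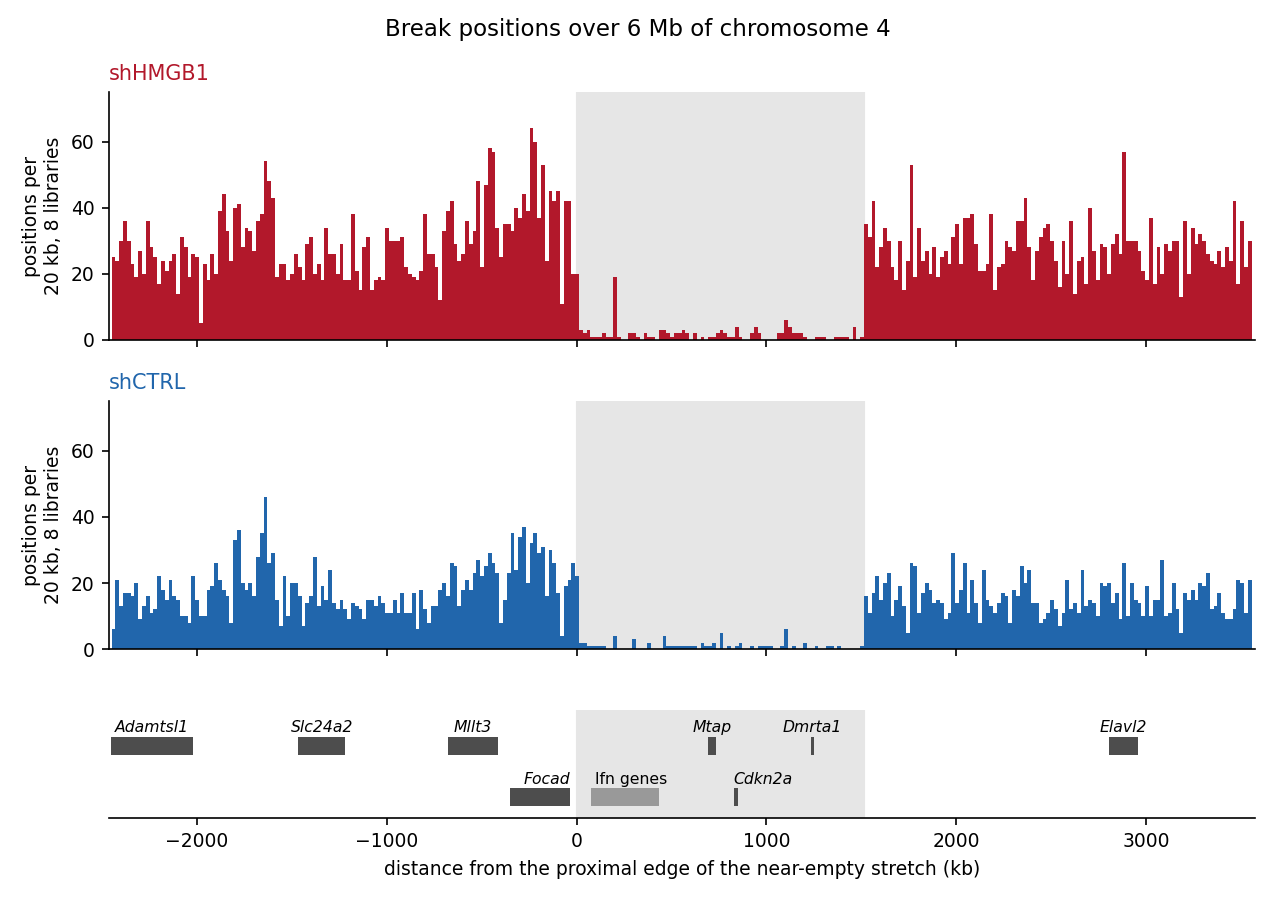
Break positions per 20 kb window over the 6 Mb, summed over 8 shHMGB1 libraries (top) and 8 shCTRL libraries (middle), with selected genes drawn to scale (bottom). The x axis is the distance in kb from the proximal edge, and the grey band spans the 1.51 Mb between the edges, where both lines drop to a median of 1 position per window except for 1 window of 19 in shHMGB1.

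Both edges were described in bins of 5 kb. They were placed by these same positions, so few positions in the bin just inside an edge follow in part from the placement. A split into 2 densities within 100 kb placed the last position of the dense proximal side at 88446880, with the next position at 88452800. On the distal side the first dense position was 89960527, with the previous one at 89950407. The edges were therefore 1513646 bases apart. Within 100 kb of the proximal edge, the flank side held 0 to 34 positions per 5 kb (median 13) and the stretch side 0 to 3 (median 1). Within 100 kb of the distal edge, the flank side held 7 to 19 (median 12) and the stretch side 0 to 2. On that stretch side 13 of the 20 bins were at 0, with the edge base 89960527 counted in the first bin inside. The last 5 kb before the proximal edge held 13 positions and the first 5 kb inside it none. The last 5 kb inside the distal edge held only the edge base itself, and the next 5 kb outside held 9. The densest bin, with 34 positions, lay 5 to 10 kb outside the proximal edge.

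Each edge was also placed in the 2 lines separately. The proximal edge fell at 88446880 in the 8 shHMGB1 libraries together and at 88445713 in the 8 shCTRL libraries. The distal edge fell at 89960527 in shHMGB1 and 89960939 in shCTRL. Placed in single libraries, where the dense side held 2 to 27 positions, the proximal edge ranged from 88409976 to 88493290 and the distal edge from 89941569 to 90009296. It lay within 5 kb of the summed edge in 4 and 5 of the 16 libraries.

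**Figure D2:**
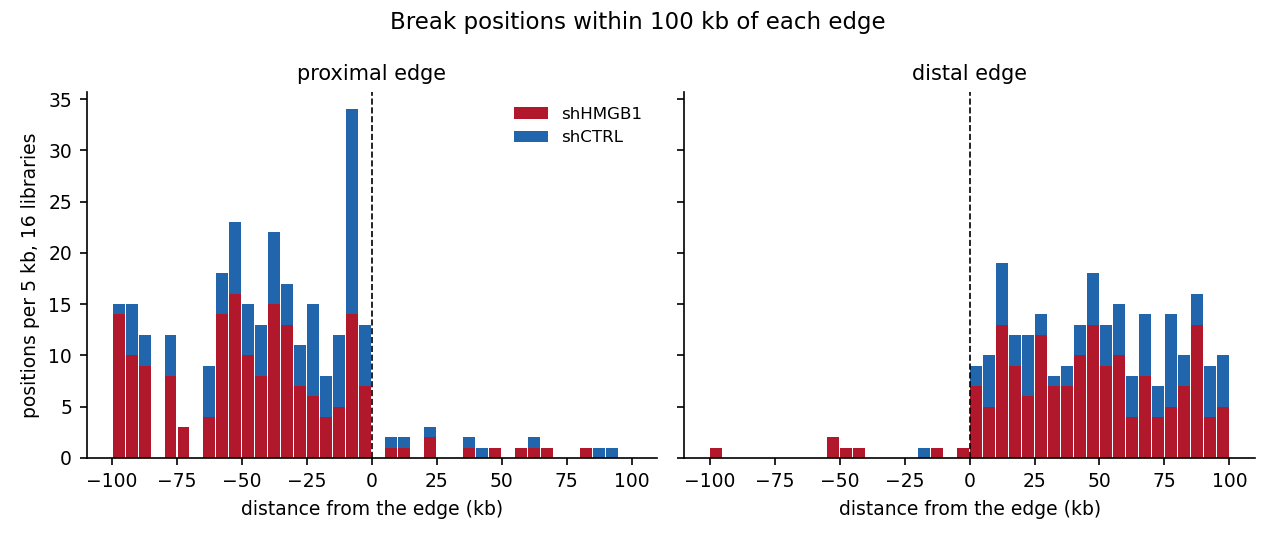
Positions per 5 kb within 100 kb of the proximal edge (left) and the distal edge (right), as stacked bars of 8 shHMGB1 and 8 shCTRL libraries, with the x axis in kb from the edge (dashed line). Bins outside the edges had medians of 13 and 12 positions, and bins inside held at most 3 and 2.

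The proximal edge fell in DNA with no annotated protein-coding gene, between Hacd4, a dehydratase of very long fatty acid synthesis, and Ifnb1. Hacd4 (chr4:88396144-88438928) held 120 positions, 70 in shHMGB1 and 50 in shCTRL libraries, or 2.80 per kb. Focad next to it, which encodes the focal adhesion protein focadhesin, held 1060 positions, or 3.35 per kb. Mllt3, a chromatin reader of the transcription elongation machinery, held 802, or 3.04 per kb. All of these had positions in 16 of 16 libraries. None of the 12 protein-coding genes of the proximal flank and neither of the pair in the distal flank was at 0.

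Beyond the distal edge the first protein-coding gene was Zfp352, a zinc finger gene of early mouse embryos. It held 5 positions, or 0.726 per kb, where the flank density would give 15.8. All 5 were in replicate 2 libraries of shHMGB1, 1 at 3 Gy and 2 each at 5 and 10 Gy, and none in shCTRL. With 5 positions from 3 libraries, and smaller shCTRL libraries, neither lines nor doses could be compared at this gene. Elavl2, an RNA-binding protein of neurons, followed with 365 positions, or 2.43 per kb. Dmrta1 was the last protein-coding gene before the edge.

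Between the edges lay 67 annotated genes, 51 of them at 0 positions. The stretch was chosen by low counts, so the low counts and low ranks of its genes follow from that choice and are a description. The 37 protein-coding genes held 13 positions over 121 kb, 9 in shHMGB1 and 4 in shCTRL libraries, where the flank density of 2.29 positions per kb would give 278. Of the 37, 32 were at 0. The 11 long noncoding RNA genes held 33 positions over 282 kb, or 0.117 per kb, and 3 were at 0.

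Mtap, the methionine salvage enzyme (chr4:89137122-89181081, plus strand), held 5 positions, where the flank density would give 100.8. Of these, 2 were in the 10 Gy shHMGB1 replicate 1, and 1 each in shCTRL libraries at 3 Gy (replicate 2), 5 Gy (replicate 1) and 10 Gy (replicate 2). All lay in introns, at 4 bases between 89143257 and 89165241. Mtap held 0.114 positions per kb. Of the 6385 autosomal protein-coding genes between 0.5 and 2 times its length, whose median was 3.01, 0.392% had as few per kb or fewer.

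Cdkn2a (chr4:89274471-89294653, minus strand) held 4 positions, where the flank density would give 46.3. They came 1 each from 4 shHMGB1 libraries, 1 at each dose, and none came from shCTRL libraries. They fell on 3 intronic bases, 89286817, 89290841 and 89294197. Of 7679 genes of similar length, 1.07% had as few positions per kb or fewer. With 4 positions in all, and smaller shCTRL libraries, the lines could not be compared at this gene.

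Cdkn2b, the p15Ink4b gene (chr4:89306299-89311039), held 1 intronic position, at 89307796 in the 10 Gy shCTRL replicate 2, where the flank density would give 10.9. The longest part of the stretch without any position lay beyond this gene, from 89314680 to 89367719. Dmrta1, a transcription factor gene (chr4:89679436-89694772), held none, where the flank density would give 35.2 and a count of 0 allows up to 3. Klhl9, a ubiquitin ligase adaptor, held 2 positions at 1 coding base, 88720383, both in shHMGB1, where the flank density would give 9.57. Among genes of similar length, 2.98% had as few or fewer than Cdkn2b per kb, 0.893% than Dmrta1 and 5.09% than Klhl9.

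In the interferon cluster, the 17 genes named Ifn held 1 position in all within their own bounds, where the flank density would give 29.2. It fell in the coding exon of Ifna4, an interferon alpha, in the 0 Gy shHMGB1 replicate 1. The DNA between these genes is not part of that count. It includes the densest place of the stretch, chr4:88641096-88641198, with 20 positions. The other 16 Ifn genes were at 0, among them Ifnb1, the interferon beta that cells release early in a viral response, and Ifne, the interferon epsilon of the female reproductive tract. These genes are short, and the flank density would give any single one 1.29 to 3.35 positions, so the 0 of 1 gene is uninformative. Their sum is a description too, because they lie in a stretch chosen for its low counts. The 14 protein-coding genes of the block around Ifnz, which is counted among the 17 as well, were all at 0, where the flank density would give 30.7.

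Sequence shared with other genes could remove reads by mapping, so the 50-base words of each transcript that occur in another gene were counted. For the Ifnz block a median of 98.4% of words were shared, so most of their transcript sequence is not unique among genes. Genes annotated over the same bases count as sharing words, as do Klhl9 and Gm26566 (612 words), although such overlap is not repeated sequence. In the block, Gm13271 lies within Gm13274, with which all its words were shared. For the 17 Ifn genes the median was 25.8%, with Ifnz the highest at 76.9%. For Ifnb1, Ifne, Mtap, Cdkn2a and Cdkn2b it was 0%, and for Dmrta1 0.298%. The words cover transcripts only, while the positions in Mtap, Cdkn2a and Cdkn2b were all intronic. Introns and intergenic DNA, where most of the stretch lies, were not examined this way, and the part of mapping in the low counts was not tested.

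**Figure D3:**
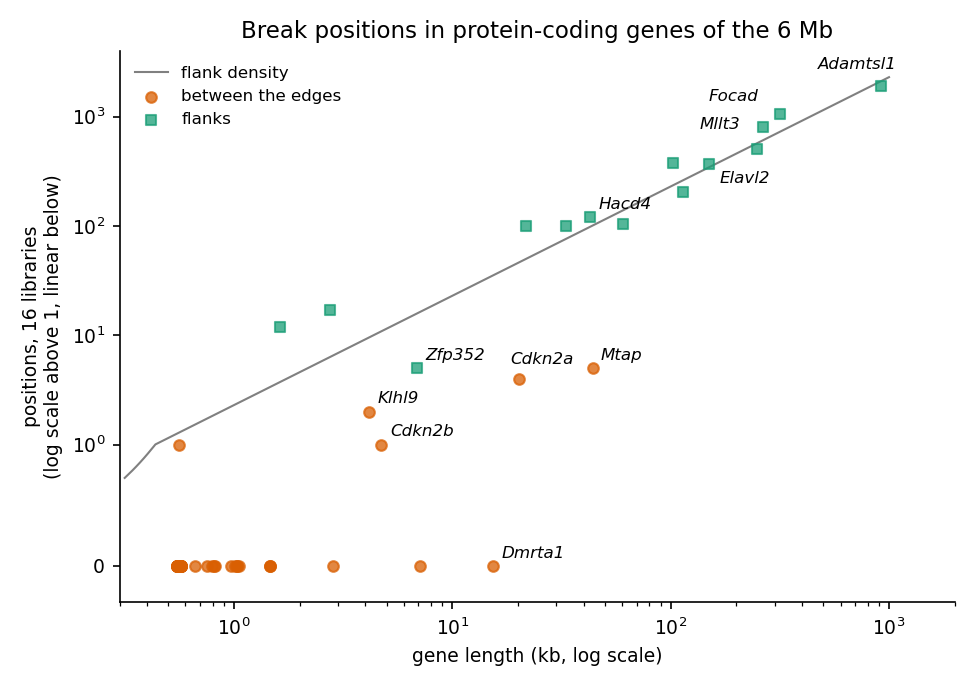
Break positions in the 16 libraries against gene length for the 51 protein-coding genes of the 6 Mb, with the flank density of 2.29 positions per kb as a line. Genes between the edges (circles) all lie below the line, with Mtap at 5, Cdkn2a at 4 and Dmrta1 at 0, while flank genes (squares) lie on both sides of it at 1.74 to 7.42 positions per kb, apart from Zfp352 at 0.726.

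The stretch was not empty. Between the edges, 189 positions were recorded library by library, 123 in shHMGB1 and 66 in shCTRL libraries, on 168 distinct bases. This was 0.125 positions per kb (95% exact Poisson interval 0.108 to 0.144, counting error only), against 2.29 per kb in the flanks, or 5.45% of the flank density. The flank density would give 3471 positions there, so the stretch was 18.4 times sparser. Without the 42 positions at 5 places that 3 or more libraries shared, the level was 4.24%, and leaving out single libraries moved it between 5.15% and 5.67%.

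Residual positions were spread along the stretch and were found in all 16 libraries. The full 100 kb bins held 5 to 29 positions, or 0.05 to 0.29 per kb, with the most in the second bin from the proximal edge and the fewest in the 13th. Places at least 100 bases apart numbered 138, and 119 of them held a single position. Of the 168 bases, 91.1% were seen in 1 library, against 98.6% of the 9997 bases in the flanks. Residual positions carried 1.07 ends each and 94.7% of them a single end, against 1.21 ends and 84.2% in the flanks.

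A few places recurred. The densest, chr4:88641096-88641198 between C87499 and Ifna13 and in no gene, held 20 positions and 25 ends in 8 libraries, 7 shHMGB1 and 1 shCTRL. The base 88903616, also in no gene, was hit in 7 libraries, 3 shHMGB1 and 4 shCTRL. A place at 89542839-89542939 held 8 positions in 5 libraries, 2 shHMGB1 and 3 shCTRL. The first and the last of these lie in the 2 windows above the threshold.

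Of the genes inside, 2 lay above the flank density, both processed pseudogenes, named after their values were seen. Tgif2-ps1, a processed pseudogene, held 5 positions in its 0.953 kb, 1 in shHMGB1 and 4 in shCTRL, and Mrpl48-ps, a processed copy of a mitochondrial ribosomal protein gene, held 3. Their levels were 5.25 and 4.72 positions per kb. Of the 50-base words of Mrpl48-ps, 44.6% also occur in Mrpl48, and of those of Tgif2-ps1, 9.49% occur in Tgif2-ps2. In Tgif2-ps1, 4 positions lay in an intron, at 89217110-89217122, which the words of its transcript do not cover. The other 2 processed pseudogenes inside were at 0, and the 4 together held 8 positions, or 1.77 per kb, where the flank density would give 10.3. Whether misplaced reads made them was not tested.

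The Y chromosome was also low in these libraries. Among 8 genes of its short arm, chosen after the data were seen, levels were 0 to 0.193 positions per kb, with Ddx3y, an RNA helicase, at 0.193, Kdm5d, a histone demethylase, at 0.169, Uty, a related demethylase, at 0.0470 and Uba1y at 0. The residual level of 0.125 per kb lay within this range. Both are given side by side only, and the presence of a Y chromosome in AB22 cells is not stated in the labels.

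Residual positions were counted in each library. The shHMGB1 libraries had 21 and 15 without irradiation, 21 and 16 after 3 Gy, 16 and 15 after 5 Gy, and 12 and 7 after 10 Gy. The shCTRL libraries had 4 and 3 without irradiation, 12 and 3 after 3 Gy, 10 and 5 after 5 Gy, and 10 and 19 after 10 Gy. As a percent of each library's own flank density this was 2.70% to 10.2% in shHMGB1 (median 5.62%) and 2.78% to 8.98% in shCTRL (median 4.18%). The lines overlapped over most of their ranges, at 5.83% ± 2.31 for shHMGB1 and 5.32% ± 2.36 for shCTRL (SD over 8 libraries). The stretch was sparse in every library, and the highest was still about 10% of its flank.

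Summed by dose between the edges, the levels fell at each higher dose in shHMGB1 and rose at each higher dose in shCTRL. In the 880 kb run neither line showed such a steady order. In shHMGB1 the 0 Gy libraries together held 7.86% of the flank density, those at 3 Gy 6.59%, those at 5 Gy 5.50% and those at 10 Gy 3.20%. In shCTRL the 0 Gy libraries held 3.06%, those at 3 Gy 4.78%, those at 5 Gy 5.72% and those at 10 Gy 5.92%. The shCTRL value at 0 Gy rests on 7 positions (95% exact Poisson interval 1.23% to 6.31%) and the shHMGB1 value on 36 (5.51% to 10.9%). The difference between the lines in their irradiation effect did not pass an exact two-sided permutation test of hairpin labels within dose (p = 0.0694, before any adjustment). In the 880 kb run the means were 4.79% without irradiation, 6.23% after 3 Gy, 5.82% after 5 Gy and 4.11% after 10 Gy for shHMGB1, and 4.21%, 7.15%, 8.83% and 5.94% for shCTRL in the same dose order, so in both lines the 0 Gy mean lay below those at 3 and 5 Gy. Window 88640001-88660000, outside that run, held 4 and 5 positions in the 0 Gy shHMGB1 libraries and none in the 0 Gy shCTRL libraries.

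**Figure D4:**
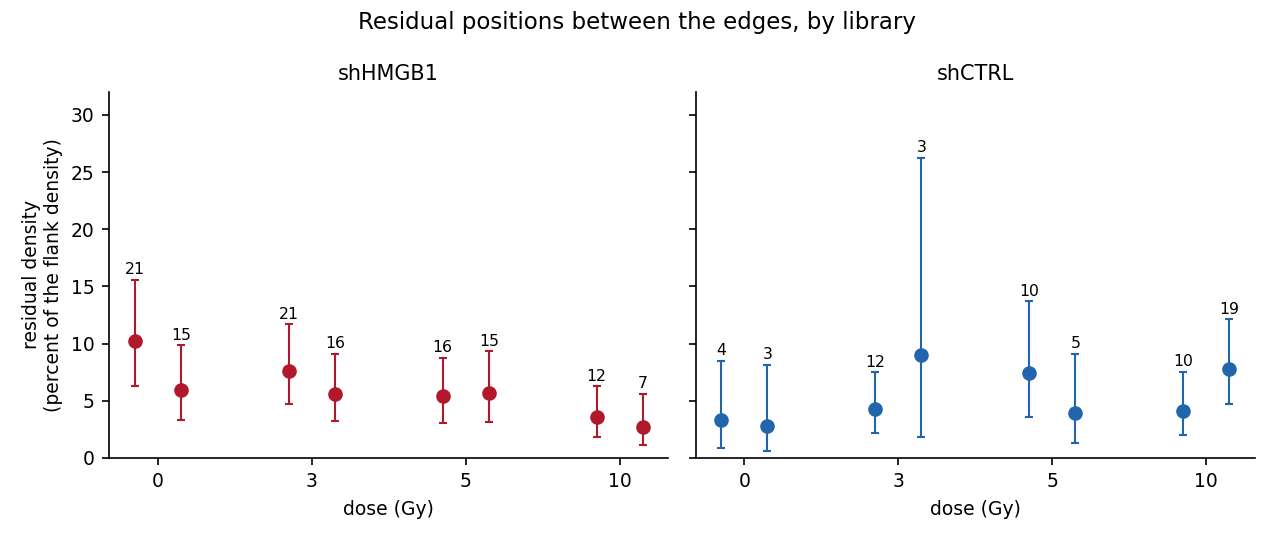
Residual positions between the edges as a percent of each library's flank density, by dose in Gy, for shHMGB1 (left) and shCTRL (right). Points are libraries, bars are 95% exact Poisson intervals (counting error only) and the numbers are positions counted, from 21 in shHMGB1 at 0 Gy to 3 in shCTRL.

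Whether the hairpin or irradiation changed the region was tested with 1 value per library and exact two-sided permutation tests, adjusted over 3 measures and 2 comparisons. These used the 880 kb run, and left out the window next to each of its ends, so the further low windows beyond count with the flanks. Its density was 5.24% ± 1.87 of the rest of the 6 Mb over 8 shHMGB1 libraries and 6.53% ± 3.38 (SD) over 8 shCTRL libraries, and the exact permutation test gave p = 0.358 (adjusted 0.430). It was 6.35% ± 2.92 in the 12 irradiated libraries and 4.50% ± 1.53 in the 4 libraries at 0 Gy (exact permutation p = 0.273, adjusted 0.409). With the joined stretch the line difference turned to 5.85% ± 2.22 in shHMGB1 against 5.27% ± 2.55 in shCTRL (adjusted exact permutation p = 0.781).

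The share of a library's positions that fell in the distal flank was compared as well. The mean share was 0.0699% ± 0.0112 (range 0.0541% to 0.0910%) for shHMGB1 and 0.0574% ± 0.00694 (0.0463% to 0.0670%) for shCTRL, over 8 libraries each (exact permutation p = 0.00926, adjusted 0.0556). The proximal flank held 0.0894% ± 0.00360 (0.0851% to 0.0977%) of positions in shHMGB1 and 0.0810% ± 0.00865 (0.0662% to 0.0974%) in shCTRL (exact permutation p = 0.0231, adjusted 0.0694). The shHMGB1 and shCTRL ranges overlapped in both flanks, and neither difference passed the adjusted threshold of 0.05, though both passed with the joined stretch (adjusted exact permutation p = 0.0417 each). With the replicate number as a block the joined stretch gave an adjusted exact permutation p of 0.0938 in the distal and 0.117 in the proximal flank. Neither passed, but this block exchanges labels between same-numbered libraries of the lines. Those numbers do not pair libraries across the lines, so the block does not decide the calls. Library size moved with the line, at a median of 506608 positions in shHMGB1 and 292504 in shCTRL. With all libraries thinned to 131430 ends the adjusted exact permutation p was 0.176 in the distal and 0.625 in the proximal flank.

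Irradiation gave no difference past the threshold in either flank. The distal flank held 0.0660% ± 0.0119 of positions in irradiated libraries (n = 12) and 0.0567% ± 0.00264 at 0 Gy (n = 4), with an exact permutation p of 0.0957 (adjusted 0.191). The proximal flank held 0.0854% ± 0.00862 in irradiated libraries (n = 12) and 0.0844% ± 0.00498 at 0 Gy (n = 4), with an exact permutation p of 0.774.

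Break ends were also compared in 100 kb windows across the genome with edgeR's quasi-likelihood test and Benjamini-Hochberg adjustment. Of the 60 windows of the 6 Mb, 46 held enough ends to be tested, 44 of them wholly in the flanks and 2 across an edge, and none of the windows inside did. None of the 46 was called in shHMGB1 against shCTRL, where 0.0398% of 25127 windows were called. An unadjusted p under 0.05 was found in 4 of the 46 and in 2131 of the 25127. DESeq2 called 0 of the 46 as well. Values were higher in shHMGB1 in 32 of the 46, with a median log2 difference of 0.07, against 0.02 over all windows. For irradiated against 0 Gy libraries none of the 46 was called, where 0.00796% of windows were, and DESeq2 called 0. An unadjusted p under 0.05 was found in 3 of the 46 and in 1951 of the 25127.

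The 2 windows with the smallest p lay in the distal flank. Window 91300001-91400000, which covers most of Elavl2, held 32.4 ± 8.31 CPM (ends scaled to library size) in shHMGB1 and 20.0 ± 10.8 CPM in shCTRL (log2 difference 0.76 ± 0.26 SE, adjusted p = 0.301 by edgeR). Window 90900001-91000000 held 24.8 ± 6.23 CPM in shHMGB1 and 14.2 ± 5.92 CPM in shCTRL (log2 difference 0.80 ± 0.28 SE, adjusted p = 0.327 by edgeR). Neither difference passed the test.

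Of the genes of the region, 11 held enough ends for the edgeR test, all in the flanks. None was called in shHMGB1 against shCTRL, where 0.206% of 12626 genes were called, and none in irradiated against 0 Gy libraries, where 0.0158% were. DESeq2 called none of the 11 either. By edgeR 1 of the 11 had an unadjusted p under 0.05 between the lines, against 1214 of the 12626. With irradiation it was 0, against 890 of the 12626. Elavl2 had the smallest p, with 65.7 ± 20.2 CPM in shHMGB1 and 43.1 ± 15.6 CPM in shCTRL (log2 difference 0.62 ± 0.22 SE, unadjusted p = 0.00577, adjusted p = 0.290 by edgeR). Focad held 160 ± 21.2 CPM in shHMGB1 and 144 ± 37.5 CPM in shCTRL (adjusted p = 0.751 by edgeR). Mllt3 held 130 ± 12.3 CPM in shHMGB1 and 108 ± 41.0 CPM in shCTRL (adjusted p = 0.735 by edgeR).

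Across the genome without the Y chromosome, 86 unbroken runs of at least 10 low windows were found, and 31 of them had positions in at least 50% of their windows. The 880 kb run ranked 4th of the 31 in length, after runs of 980 and 920 kb on chromosome 14 and 940 kb on chromosome 7. Ranks here leave out runs with positions in fewer windows, some of them longer. Apart from chromosome starts, these include unbroken runs of 2680 kb on the X, 1520 kb on chromosome 2 and 1300 kb on chromosome 7. Joined across single windows in the same way, a rule chosen after seeing this stretch, 97 runs were found. Of these, 49 had positions in at least 50% of their windows, and the 1500 kb stretch was the longest of the 49, ahead of 1420 kb on chromosome 14. The 1500 kb stretch had positions in 84% of its windows. The 5 windows on each side of the chromosome 4 stretch averaged 45.4 and 47.8 positions, against 13.4 and 16.6 around the chromosome 14 run. Only 12 of the 49 averaged at least 22 positions on both sides, and the next longest of the 12 was 800 kb, on chromosome 7. Chromosome 4 as a whole was not low, with its median of 44 against 33 to 56 over the autosomes and 25 on the X.

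Genes that work with the products of the region lay elsewhere and held breaks. Of 13 genes of the RB and p53 arm, none was at 0, with a median of 5.32 positions per kb and a range from 1.89 in Rb1, the retinoblastoma gene, to 24.2 in Ccnd1, a cyclin D. None of 8 methionine salvage genes and partners of Mtap was at 0 (median 4.91 per kb), and none of 7 mesothelioma suppressors, such as Bap1 and Nf2, was (median 5.09 per kb). Of 13 interferon receptor and signalling genes, including type I and type III interferons on other loci, Ifnl2 was at 0. Ifnl3, an interferon lambda, held 2 positions in shHMGB1 libraries and none in shCTRL, and Ifnk, an interferon kappa gene on chromosome 4 outside the region, held 4. All autosomal protein-coding genes had a median of 2.82 positions per kb, and 556 of 20807 were at 0.

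In the edgeR gene fits no list member passed the test in either comparison. An unadjusted p under 0.05 was found for Jak1 and Lats2 between the lines and for Tyk2 and Mat2a with irradiation. Among all 12626 genes tested it was found for 1214 between the lines and 890 with irradiation. For shHMGB1 against shCTRL, 9 RB and p53 genes were tested and 2 were higher, at a median log2 difference of -0.11. For interferon signalling it was 2 of 5 at -0.30, for methionine salvage 2 of 4 at -0.20, and for the suppressors 2 of 6 at -0.11, against 0.03 over all genes. For irradiated against 0 Gy libraries, 4 of 9 RB and p53 genes were higher at a median of -0.05, 2 of 5 interferon genes at -0.24, 1 of 4 salvage genes at -0.30 and 3 of 6 suppressors at 0.02, against -0.01 over all genes.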

How the data were processed

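BLISS libraries of AB22 cells, 8 per hairpin line, were examined through the deposited end positions. Per the submitters' processing notes, the tools were UMI-tools, bedtools, SAMtools, BWA 0.7.5-r404 and Trimmomatic 0.32, with mm10, in an order and with settings not given in the sources used here. The deposited values are the authors' counts of ends per cluster of ends after molecular identifiers removed duplicates, with the position of each end listed beside them. They are raw counts. Reads that map to several places were treated in a way not given in the sources used here.

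Positions on the main chromosomes were counted in 20 kb windows, and low windows, edges, genes (GENCODE M21) and RefSeq promoters were described with Python 3.11.15, scipy 1.17.1, pandas 2.3.3, numpy 2.4.6 and matplotlib 3.10.9. Edges are the split with the highest 2-density Poisson likelihood. Measures per library were compared by exact permutation, with hairpin labels exchanged within dose and irradiation labels within line. Ends in 100 kb windows and genes were tested with edgeR 4.0.16 in R 4.3.3 (filterByExpr, TMM, 8 group means), with DESeq2 1.42.0 as an alternative. Both tests were tested on simulated data.

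The genes named are protein-coding and microRNA genes in or next to the stretch, and list members at 0 in a line or past a test. Others (pseudogenes, Y genes, ends of a range, lowest p) were named after their values were seen. The joined stretch was added after seeing the data. Region, lists and tests were chosen with earlier results of these data known. Libraries held 131430 to 1010888 ends. Intervals cover counting error only. The expression and chromatin accessibility data of the study were not analysed here.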

Additional observations from a re-analysis of the deposited data

Results flagged for a closer look

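Between the edges and in the joined stretch, the residual level in irradiated libraries lay on opposite sides of 0 Gy in the lines. There, relative to the mean of their own 0 Gy libraries, all 6 irradiated shHMGB1 libraries were lower and all 6 irradiated shCTRL libraries were higher. Between the edges the effect was -2.99 points of the flank density in shHMGB1 and 3.03 points in shCTRL, a difference of -6.02 points (exact two-sided permutation p = 0.0694, unadjusted). With the joined windows the difference was -6.32 points (exact permutation p = 0.0710, unadjusted). In the 880 kb run the directions were not opposite, and the difference was -2.50 points (exact permutation p = 0.306, unadjusted). The shHMGB1 means there were 4.79% without irradiation, 6.23% after 3 Gy, 5.82% after 5 Gy and 4.11% after 10 Gy, and the shCTRL means were 4.21%, 7.15%, 8.83% and 5.94% in the same dose order. The lower of the 0 Gy shHMGB1 libraries, at 5.96%, lay below 1 of the irradiated ones, at 7.64%. The pattern rests on 36 positions in shHMGB1 and 7 in shCTRL at 0 Gy. Window 88640001-88660000, outside the 880 kb run, held 4 and 5 of the shHMGB1 ones and none of the shCTRL ones.

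The difference between the lines in the irradiation effect on the share of positions in the distal flank passed an unadjusted test. This test, used above for the residual level too, exchanged hairpin labels within each dose. It assumes no line difference at any dose, so it does not isolate a difference in the irradiation effect. No adjustment over the measures examined was made, and the difference was not retested in thinned libraries. The effect was 0.0169 points in shHMGB1 and 0.00163 points in shCTRL, a difference of 0.0152 points (exact permutation p = 0.0401 unadjusted, 1 of 11 measures examined), and with the joined stretch the difference was 0.0158 points (exact permutation p = 0.0293, unadjusted).

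In the proximal flank, the 3 Gy shHMGB1 replicate 2 stood apart from the other 7 shHMGB1 libraries. Its share was 0.0977%, with the next at 0.0894%, and 0.0963% with the joined stretch, with the next at 0.0885%. Of 22 groups of 8 libraries examined for such values, 2 were marked, and chance marks about 1 in 20.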

How the results depend on the processing

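The length of the longest run was 880 kb, 400 kb at a threshold of 10% of the median, 1300 kb at 50%, 630 kb with 10 kb windows and 1500 kb with 50 kb windows or joined across single windows. It was 1300 kb in shHMGB1 libraries alone and 740 kb in shCTRL libraries alone, and 880 to 1300 kb with 1 library left out (1300 kb without the 5 Gy shHMGB1 replicate 1, the 3 Gy shCTRL replicate 1 or the 10 Gy shCTRL replicate 2).

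The line difference in residual density, -1.29 points, turned to 1.60 at the 10% threshold, 0.467 with 50 kb windows and 0.572 with the joined stretch, with and without the replicate block, and was -1.83 to -0.572 with 1 library left out. None passed a test. The proximal difference between lines, 0.00837 points, passed at 0.00894 with 10 kb windows, 0.00884 with 50 kb windows and 0.00859 joined, and was 0.00625 to 0.0107 with 1 library left out. The distal difference, 0.0125 points, passed at 0.00904 with all break ends, 0.0125 with 10 kb windows, 0.0115 with 50 kb windows and 0.0119 joined, and was 0.00951 to 0.0148 with 1 library left out. Of the libraries left out, the 3 Gy shCTRL replicate 1 brought both flanks past the threshold and the 0 Gy shHMGB1 replicate 2 the distal one. The irradiation difference in the proximal flank, 0.00100 points, turned to -0.00242 after thinning, and was -0.00103 to 0.00276 with 1 library left out.

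Genome-wide calls moved more. Windows called between lines were 10, 56 with DESeq2, 5 with library totals, 20 with the replicate block and 3 to 150 with 1 library left out (150 without the 3 Gy shHMGB1 replicate 1). For irradiation they were 2, 0 with DESeq2 and with distinct positions, 4 without a filter, 5 with the block and 0 to 8 with 1 library left out. Genes called between lines were 26, 70 with distinct positions and 11 to 130 with 1 library left out, and for irradiation 2, 0 with DESeq2, 4 with library totals, 1 without a filter, 4 with the block and 1 to 12 with 1 library left out. No window or gene of the 6 Mb was called under any of these settings. The causes were not tested.

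Replicate numbers do not pair libraries across the lines, where deviations from group means of libraries with the same number correlated at -0.419 to 0.0803. Within shHMGB1 they correlated at 0.0392 to 0.201, and within shCTRL at 0.288 to 0.323 in all 6 pairs of doses, so libraries with the same number deviated together in shCTRL. With the replicate block the adjusted exact permutation p for the line difference was 0.156 in the proximal and 0.0938 in the distal flank, and 0.117 and 0.0938 with the joined stretch. The alternative with positions outside repeats was not run. Single libraries hold 3 to 21 residual positions, so differences between libraries within their intervals were not detectable at this depth.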
